A study of Homo sapiens with 11 samples.

Results

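Mitochondrial ribosomal protein genes were taken as the protein-coding genes of GENCODE release 29 whose symbol starts with MRPL or MRPS and a digit, and which reached at least 1 CPM (read counts relative to library size) in 2 or more of 11 RNA sequencing libraries. Of 78 such symbols, 77 met the rule, out of 13115 protein-coding genes that reached the same level and 58735 genes in the count tables. The 1 symbol under the rule was MRPS24 (ENSG00000062582), which had at most 0.826 CPM in any library and shares exons on the same strand with the readthrough gene URGCP-MRPS24. Just inside the rule, the second-highest CPM over the libraries was 3.52 for MRPL53, 5.81 for MRPL38 and 9.34 for MRPS17. The members were spread over 21 chromosomes, with at most 8 on any of them. All 77 passed the filter on low counts in each of the fits described here.

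The mitochondrial ribosome makes the few proteins that mitochondrial DNA encodes, all of them parts of the respiratory chain and ATP synthase. Its RNA comes from the mitochondrial genome, whereas every protein of its large and small subunits is encoded in the nucleus, made in the cytosol and imported. Some of these proteins descend from bacterial ribosomal proteins, and others were added in the mitochondrial lineage. By their known roles, 51 members belong to the large subunit and 25 to the small subunit, and MRPS36 (also called KGD4) is a subunit of the alpha-ketoglutarate dehydrogenase complex rather than of the ribosome. MRPS30 and MRPS18A are large-subunit proteins in spite of their symbols. A bacterial counterpart is known for 45 members, and 31 are specific to mitochondria.

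The libraries came from AsPC-1 and PANC-1, established human pancreatic cancer cell lines. The groups were AsPC-1 with small interfering RNA (siRNA) against MYEOV (n = 3), AsPC-1 controls (n = 2), PANC-1 with MYEOV siRNA (n = 3) and PANC-1 controls (n = 3). Transfected cells gave their RNA 48 hours after the siRNA was added. AsPC-1 grew in RPMI 1640 medium and PANC-1 in DMEM, so cell line and medium cannot be told apart between them. The controls are labelled wild type and untreated, but the protocol also lists a negative-control siRNA. If they were untreated, MYEOV siRNA and transfection itself cannot be told apart. A pair of siRNAs against MYEOV was used, and the sources used here do not say what the siRNA libraries' numbers mark or whether libraries came from separate cultures. The p-values therefore reflect only how far these libraries vary, and that variation may be technical.

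Library totals ran from 12113093 to 15066456 counts, and 22050 to 24025 genes had at least 1 count. MYEOV itself fell to 35.9% of control in AsPC-1 siRNA libraries (adjusted p = 1.95e-16 by edgeR) and to 54.4% of control in PANC-1 siRNA libraries (adjusted p = 4.19e-06 by edgeR). All 6 epithelial markers reached 1 CPM, and their summed level was 18593 to 19167 CPM in AsPC-1 siRNA libraries, 18120 to 18258 in AsPC-1 controls, 2061 to 2090 in PANC-1 siRNA libraries and 2351 to 2642 in PANC-1 controls. Of 8 fibroblast markers 5 reached 1 CPM, and their sum was 105.1 to 108.6 CPM in AsPC-1 siRNA libraries, 293.7 to 306.6 in AsPC-1 controls, 56.9 to 59.6 in PANC-1 siRNA libraries and 41.7 to 50.0 in PANC-1 controls. In AsPC-1 only 1 of the 8 passed the filter on low counts, with a log2 fold change of -1.54 after siRNA. Between controls, edgeR called 1 of 5 tested fibroblast markers higher in AsPC-1 and 4 lower, with a median log2 fold change of -5.38. The fibroblast sums therefore do not stand for the list as a whole. Leukocyte markers summed to at most 3.59 CPM, endothelial to 0.978, acinar to 0.498 and islet to 0.166, and 3 of 6 acinar and 3 of 4 islet markers had no count in any library. The part of the epithelial and fibroblast differences in the results below was not tested.

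After MYEOV siRNA in AsPC-1 the median mitochondrial ribosomal protein gene had a log2 fold change near 0, and single members rose or fell. They took 0.354 ± 0.004% of all counts in AsPC-1 siRNA libraries (SD, n = 3) and 0.358 ± 0.002% in AsPC-1 controls (SD, n = 2). The edgeR quasi-likelihood test called 16 of the 77, or 20.8%, at an adjusted p under 0.05, against 32.9% of the 14304 genes tested. Of these 9 were higher and 7 lower, or 11.7% and 9.09% of the members, against 16.6% and 16.3% of all genes. DESeq2 and a joint edgeR fit of all groups each called 4 members higher and 4 lower. Of all genes tested they called 22.2% and 21.0%. Leaving out either AsPC-1 control, which leaves a single library in that group, also lowered the calls among members and among all genes. The median log2 fold change was 0.03 over the members and 0.00 over all tested genes. In bulk RNA, fewer cells of a type and less RNA per cell cannot be told apart.

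PANC-1 showed fewer calls, both among the same members and among all genes tested. They took 0.406 ± 0.004% of counts in PANC-1 siRNA libraries and 0.423 ± 0.008% in PANC-1 controls (SD, n = 3 each). Called were 0 higher and 4 lower members, 5.19% of the 77, against 9.08% of the 14929 genes tested, 4.16% higher and 4.92% lower. At an unadjusted p under 0.05 the edgeR test passed 13 of the 77 members, against 3509 of the 14929 genes tested. DESeq2 also called 0 members higher and 4 lower, with 7.70% of all genes tested called. The median log2 fold change was -0.04 over the members and 0.00 over all tested genes. Both subunits contributed, with 2 of 51 large-subunit and 2 of 25 small-subunit members lower.

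**Figure D1:**
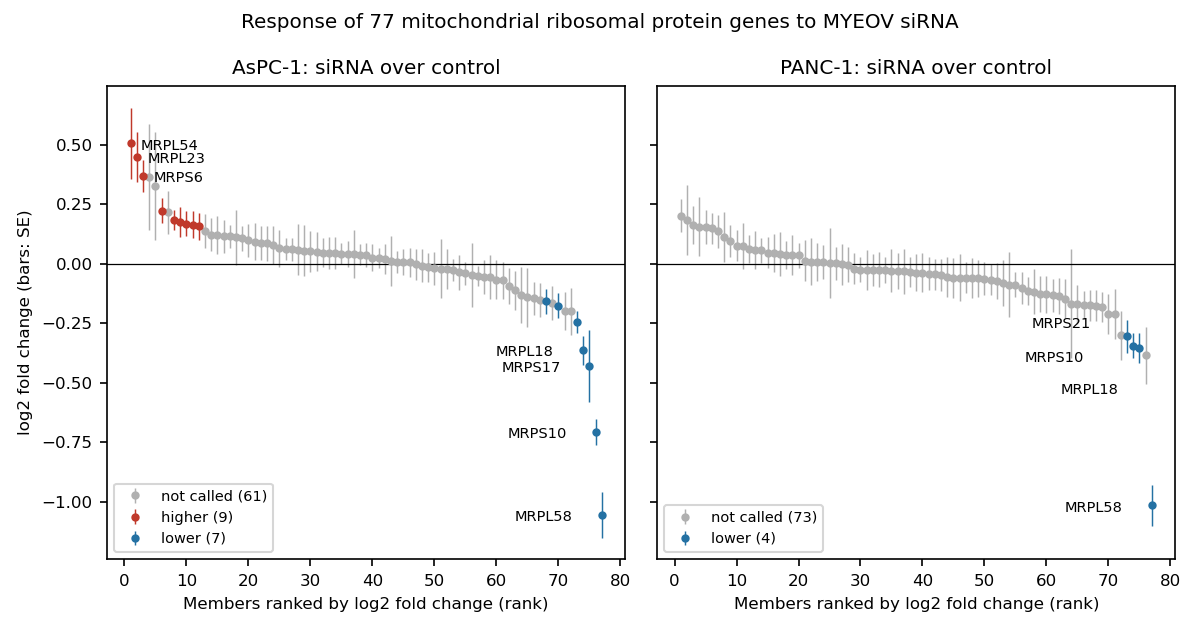
The log2 fold change of each of the 77 members, siRNA over control, ranked within AsPC-1 (left) and PANC-1 (right), with bars for the standard error and colour for the edgeR call. In AsPC-1 9 members were higher and 7 lower, in PANC-1 0 and 4, and MRPL58 lies apart at the low end of both.

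MRPL58, MRPS10 and MRPL18 were the members called in both lines, each lower in the siRNA libraries. Of all genes tested, 16.3% were lower after siRNA in AsPC-1, and 4.92% were lower in PANC-1. These members were not compared with the share of all genes lower in both lines, so whether they exceed that share was not tested. MRPL58 (ENSG00000167862, chr17:75012670-75021261 on the plus strand of GRCh38), formerly ICT1, is a peptidyl-tRNA hydrolase of the release factor family that is built into the large subunit and can free stalled mitochondrial ribosomes. Its levels were 11.9, 11.4 and 11.9 CPM in AsPC-1 siRNA libraries, against 23.2 and 24.8 CPM in AsPC-1 controls. In PANC-1 they were 14.2, 15.4 and 14.98 CPM in siRNA libraries, against 32.1, 27.8 and 30.0 CPM in controls. The siRNA libraries were all lower than the controls of the same line. MRPL58 was at 48.1% of control in AsPC-1 (log2 fold change -1.05, adjusted p = 3.65e-09 by edgeR, SE 0.10) and at 49.5% of control in PANC-1 (log2 fold change -1.02, adjusted p = 5.05e-06 by edgeR, SE 0.09). The difference between these responses, AsPC-1 minus PANC-1, was -0.02 on the log2 scale (adjusted p = 0.992 by edgeR, SE 0.13).

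MRPS10 (ENSG00000048544, chr6:42206801-42217865 on the minus strand), a small-subunit protein with a bacterial counterpart, fell further in AsPC-1 than in PANC-1. AsPC-1 siRNA libraries had 52.3, 51.6 and 53.1 CPM, against 81.1 and 87.7 CPM in AsPC-1 controls. PANC-1 siRNA libraries had 94.8, 98.4 and 94.8 CPM, against 119.6, 123.8 and 122.3 CPM in PANC-1 controls. Libraries with siRNA and control libraries did not overlap in either line, and the replicates of each group lay close together. The log2 fold change was -0.71 in AsPC-1 (adjusted p = 1.96e-10 by edgeR, SE 0.05), 61.2% of control, and -0.34 in PANC-1 (adjusted p = 0.000986 by edgeR, SE 0.05), 78.8% of control. In the test of the difference between the lines MRPS10 was the 1 member called, at -0.35 (adjusted p = 0.00872 by edgeR, SE 0.08). With single libraries left out, that call was lost without AsPC-1 control replicate 2 (-0.29, adjusted p = 0.103 by edgeR).

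MRPL18 (ENSG00000112110, chr6:159789812-159798436 on the plus strand) encodes a large-subunit protein with a bacterial counterpart. It had 46.3, 43.7 and 45.0 CPM in AsPC-1 siRNA libraries, against 55.2 and 59.1 CPM in AsPC-1 controls. PANC-1 siRNA libraries had 58.9, 58.4 and 60.5 CPM, against 74.9, 71.5 and 80.8 CPM in PANC-1 controls. The groups again did not overlap within a line. MRPL18 was at 77.7% of control in AsPC-1 (log2 fold change -0.36, adjusted p = 4.14e-05 by edgeR, SE 0.06) and at 78.2% in PANC-1 (log2 fold change -0.35, adjusted p = 0.00281 by edgeR, SE 0.06). The difference between the responses was 0.00 (adjusted p = 0.9999 by edgeR, SE 0.09).

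**Figure D2:**
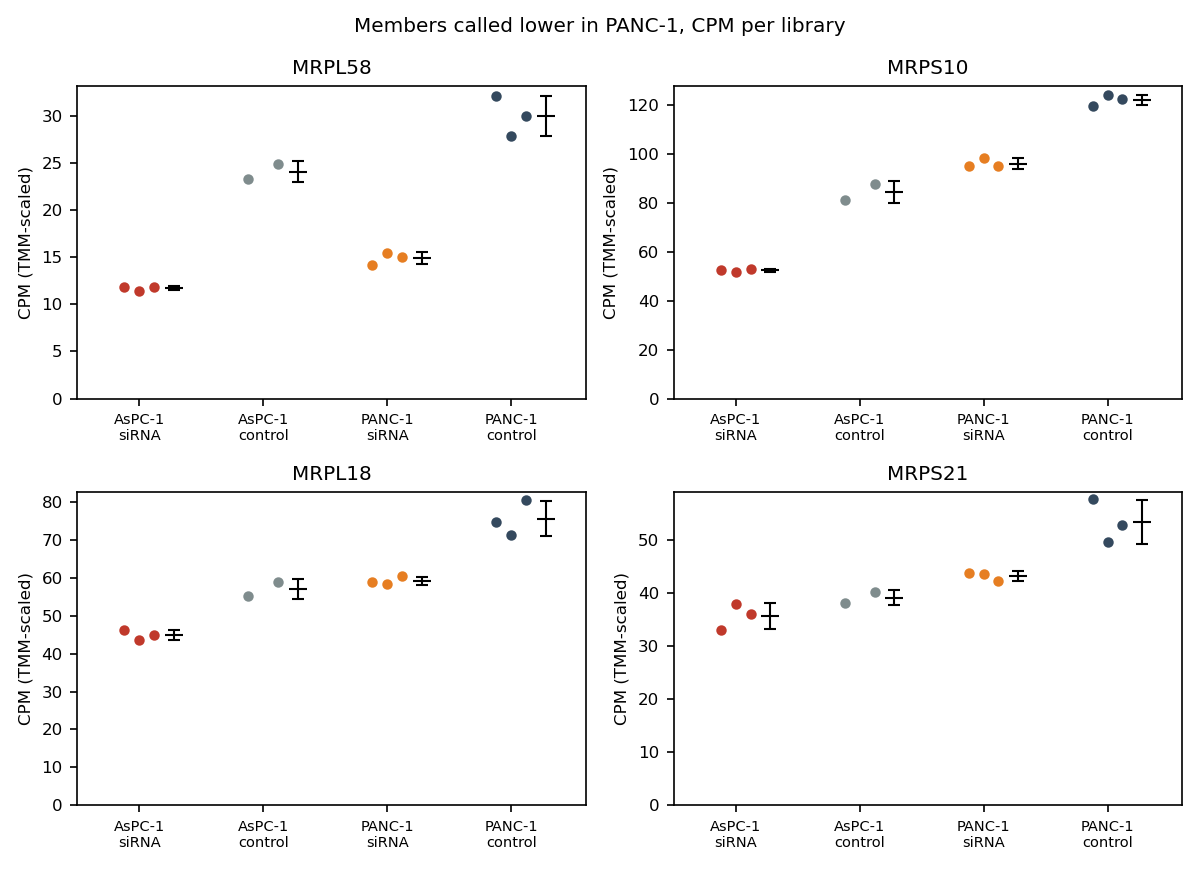
TMM-scaled CPM of MRPL58, MRPS10, MRPL18 and MRPS21 in every library, with points for libraries and a bar for the group mean with its SD. The siRNA libraries of each line lie below its controls in all 4 panels, with MRPL58 at 11.4 to 11.9 CPM in AsPC-1 siRNA libraries and at 23.2 and 24.8 CPM in AsPC-1 controls.

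The 3' untranslated region (UTR) of MRPL58 and MRPS10 holds the 7-base word CTCATGT, which earlier results of these same data linked to lower expression after the siRNA, and MRPL18 has none. It was found in 9 of 77 members, 11.7%, and in 13.6% of the genes tested in AsPC-1 and 13.8% of those tested in PANC-1 that have a 3' UTR. The sites of both called members are shown with the surrounding RNA-strand bases of GENCODE 29, beside 2 carriers that were not called, MRPS14 and MRPS23. MRPS23 has 2 copies, of which the first is given. Capitals mark the word.
MRPL58: aataatgcacCTCATGTattagtcaca
MRPS10: ccgattttatCTCATGTaagcattaca
MRPS14: tgacatgtagCTCATGTatggcagttt
MRPS23: tattttaaaaCTCATGTagattttcta
These stretches lie at chr17:75021218-75021244 (plus), chr6:42207782-42207808 (minus), chr1:175014273-175014299 (minus) and chr17:57838826-57838852 (minus) of GRCh38.

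Most carriers among the members were not called. Of the 9 carriers MRPL58 and MRPS10 were lower in each line, and MRPL11, MRPL19, MRPL22, MRPL51, MRPS14, MRPS23 and MRPS33 were not called in either. MRPS14 came nearest in AsPC-1, with 24.96, 28.3 and 28.3 CPM in siRNA libraries against 30.7 and 30.7 CPM in controls (log2 fold change -0.20, adjusted p = 0.0549 by edgeR). MRPS23, with its 2 copies, had log2 fold changes of 0.00 in AsPC-1 (adjusted p = 0.980 by edgeR) and -0.04 in PANC-1 (adjusted p = 0.747 by edgeR). Among all 1627 carriers tested in AsPC-1, 35.8% were lower, against 14.9% of the genes with a 3' UTR and no such word. In PANC-1 19.1% of 1720 carriers were lower, against 3.33% of the others. Carriers and other genes were not matched for 3' UTR length or expression, and the word was counted in the transcript with most copies. As the word was found in these data, none of this is independent of the earlier result, and the part of the word in the change of any member was not tested.

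**Figure D3:**
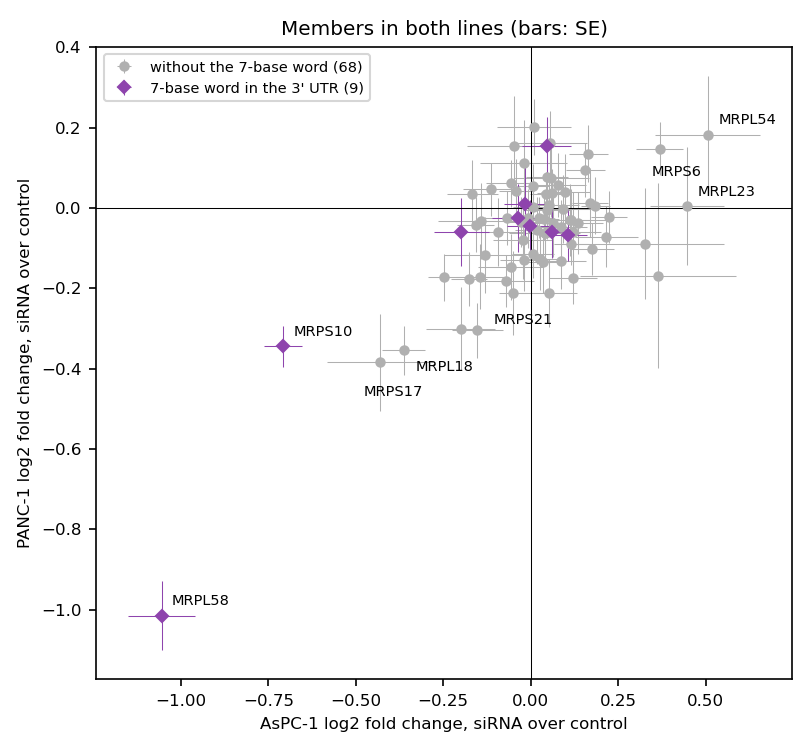
The log2 fold change of each member in AsPC-1 (horizontal axis) and PANC-1 (vertical axis), siRNA over control, with standard errors as bars and diamonds for the 9 members with the 7-base word in the 3' UTR. MRPL58 and MRPS10 lie away from the other 7 diamonds, which sit between -0.20 and 0.11 in AsPC-1.

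MRPS21, a small-subunit protein gene, was the fourth member called in PANC-1. It had 43.8, 43.6 and 42.2 CPM in PANC-1 siRNA libraries, against 57.7, 49.5 and 52.8 CPM in PANC-1 controls, 81.0% of control (log2 fold change -0.30, adjusted p = 0.0148 by edgeR, SE 0.07). With single libraries left out, the edgeR call was lost without PANC-1 control replicate 1 (adjusted p = 0.0592), siRNA replicate 1 (0.0700) or siRNA replicate 3 (0.0588). In AsPC-1 the values were 32.9, 37.9 and 36.1 CPM in siRNA libraries and 38.1 and 40.1 CPM in controls (log2 fold change -0.15, adjusted p = 0.114 by edgeR). All 3 AsPC-1 siRNA libraries lay below both controls, the closest by a small margin. The responses of the lines differed by 0.17 (adjusted p = 0.469 by edgeR).

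Among small-subunit members in AsPC-1, MRPS6 and MRPS34 rose and MRPS17 and MRPS18B fell beside MRPS10, 2 higher and 3 lower of 25, or 8% and 12%, against 16.6% and 16.3% of all genes tested. MRPS6, a protein with a bacterial counterpart, had 54.2, 52.0 and 59.4 CPM in AsPC-1 siRNA libraries, against 43.3 and 40.8 CPM in AsPC-1 controls (log2 fold change 0.37, adjusted p = 9.88e-05 by edgeR, SE 0.07). MRPS6 shares exons on its own strand with SLC5A3, so reads of the pair may not be separable. In PANC-1 it had 46.5, 45.7 and 45.8 CPM in siRNA libraries, against 42.2, 38.6 and 43.5 CPM in controls, and was not called (log2 fold change 0.15, adjusted p = 0.193 by edgeR). MRPS34, a mitochondrion-specific protein, had 162.6, 164.5 and 156.8 CPM in AsPC-1 siRNA libraries, against 139.2 and 140.9 CPM in AsPC-1 controls (log2 fold change 0.18, adjusted p = 0.00112 by edgeR, SE 0.04). Its PANC-1 log2 fold change was 0.01 (adjusted p = 0.974 by edgeR).

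MRPS17, one of the least expressed members, had 6.97, 5.88 and 8.49 CPM in AsPC-1 siRNA libraries, against 10.1 and 8.69 CPM in AsPC-1 controls (log2 fold change -0.43, adjusted p = 0.0299 by edgeR, SE 0.15). The groups almost touch, and the call was lost without any of AsPC-1 control replicate 1 (adjusted p = 0.297 by edgeR), control replicate 2 (0.0512), siRNA replicate 1 (0.0627) and siRNA replicate 2 (0.153). Its values in PANC-1 were 6.49, 7.50 and 6.34 CPM in siRNA libraries, against 8.61, 9.33 and 8.64 CPM in controls (log2 fold change -0.38, adjusted p = 0.0632 by edgeR). There the libraries did not overlap, but the adjusted p missed the threshold. MRPS17 shares exons with NIPSNAP2 on the same strand.

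The MRPS18 family has 3 human genes, all related to 1 bacterial protein, but only MRPS18C is classed here as having a bacterial counterpart. MRPS18A and MRPS18B take other places in the mitochondrial ribosome and are classed as mitochondrion-specific. MRPS18B, a small-subunit member, fell in AsPC-1, with 65.9, 70.1 and 71.4 CPM in siRNA libraries against 78.1 and 75.8 CPM in controls (log2 fold change -0.18, adjusted p = 0.0107 by edgeR, SE 0.05). The AsPC-1 call was lost without control replicate 1 (adjusted p = 0.119 by edgeR) or control replicate 2 (0.0514). In PANC-1 MRPS18B had the same log2 fold change of -0.18 without being called (adjusted p = 0.125 by edgeR), with 55.5, 56.0 and 55.9 CPM in siRNA libraries and 68.5, 58.9 and 61.5 CPM in controls. Without PANC-1 control replicate 2 it was called (adjusted p = 0.0388 by edgeR). MRPS18A had log2 fold changes of -0.02 in AsPC-1 and -0.08 in PANC-1, and MRPS18C of -0.14 and -0.03, none of them called.

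In the large subunit 7 of 51 members rose and 4 fell in AsPC-1, or 13.7% and 7.84%, against 16.6% and 16.3% of all genes tested. The median log2 fold change was 0.05 in the large subunit and -0.04 in the small subunit, and the difference between subunits was not tested. MRPL54, a mitochondrion-specific protein, had the largest rise among called members, with 11.2, 9.80 and 8.24 CPM in AsPC-1 siRNA libraries against 6.37 and 7.20 CPM in AsPC-1 controls (log2 fold change 0.51, adjusted p = 0.0108 by edgeR, SE 0.15). Its call was lost without AsPC-1 control replicate 1 (adjusted p = 0.151 by edgeR) or siRNA replicate 1 (0.0622), and DESeq2 did not call it (adjusted p = 0.0684). MRPL23 and MRPL24, proteins of the region around the peptide exit tunnel, also rose. MRPL23 had 15.6, 15.9 and 16.5 CPM in AsPC-1 siRNA libraries, against 11.6 and 11.5 CPM in AsPC-1 controls (log2 fold change 0.45, adjusted p = 0.00178 by edgeR, SE 0.11), a call lost in the joint fit of all groups (adjusted p = 0.0515 by edgeR). MRPL24 had 86.4, 94.6 and 91.2 CPM in AsPC-1 siRNA libraries, against 75.8 and 77.6 CPM in AsPC-1 controls (log2 fold change 0.22, adjusted p = 0.00138 by edgeR, SE 0.05).

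The same large-subunit genes showed no call in PANC-1. MRPL23 had 23.8, 19.4 and 17.8 CPM in PANC-1 siRNA libraries, against 20.3, 15.4 and 25.1 CPM in PANC-1 controls, a spread wider than the difference of the means. An antisense gene, MRPL23-AS1, overlaps its exons, and how strand was set in counting is not known. The PANC-1 log2 fold change was 0.18 for MRPL54 (adjusted p = 0.510 by edgeR) and -0.02 for MRPL24 (adjusted p = 0.886 by edgeR). The responses of MRPL54, MRPL23 and MRPL24 differed between the lines by 0.34, 0.46 and 0.26, with edgeR adjusted p-values of 0.494, 0.261 and 0.108, so no difference between lines was shown.

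MRPL35, a large-subunit protein with a bacterial counterpart, fell in AsPC-1 after MRPL58 and MRPL18. It had 85.0, 84.8 and 84.9 CPM in AsPC-1 siRNA libraries, against 98.0 and 100.7 CPM in AsPC-1 controls (log2 fold change -0.25, adjusted p = 0.000175 by edgeR, SE 0.05). In PANC-1 it had 57.6, 56.1 and 54.1 CPM in siRNA libraries, against 64.5, 63.0 and 61.8 CPM in controls, which do not overlap either (log2 fold change -0.17, adjusted p = 0.0872 by edgeR). The other AsPC-1 calls were small. MRPL17, MRPL20, MRPL42 and MRPL43 rose by 0.16 to 0.18 on the log2 scale and MRPL13 had a log2 fold change of -0.16, with edgeR adjusted p-values of 0.0129 to 0.0343. Each of these 5 calls was lost when 1 or more single libraries were left out, with edgeR adjusted p-values of 0.137 to 0.167 without AsPC-1 control replicate 2 for MRPL17, MRPL13, MRPL43 and MRPL42 and of 0.210 without AsPC-1 control replicate 1 for MRPL20.

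Subunits of the mitochondrial ribosome that carry other symbols were counted as a list of 5. In AsPC-1 GADD45GIP1, of the large subunit, rose, with 59.5, 59.2 and 57.1 CPM in siRNA libraries against 46.4 and 42.5 CPM in controls (log2 fold change 0.37, adjusted p = 2.70e-05 by edgeR, SE 0.06). DAP3, the GTP-binding protein of the small subunit, had 129.6, 126.8 and 136 CPM in AsPC-1 siRNA libraries, against 114.9 and 110.6 CPM in AsPC-1 controls (log2 fold change 0.19, adjusted p = 0.00151 by edgeR, SE 0.05). PTCD3, of the small subunit, fell slightly (log2 fold change -0.12, adjusted p = 0.0207 by edgeR), a call lost without AsPC-1 control replicate 1 (adjusted p = 0.437 by edgeR) or siRNA replicate 2 (0.0813). CHCHD1 and AURKAIP1 were not called in AsPC-1, and none of the 5 was called in PANC-1. Of all genes tested, 16.6% were higher and 16.3% lower in AsPC-1, and 9.08% were called in PANC-1.

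Genes that build and serve the mitochondrial ribosome were also followed. Their counts are set against the shares over all genes tested, 16.6% higher and 16.3% lower in AsPC-1 and 4.16% higher and 4.92% lower in PANC-1. Of 26 assembly factors tested in AsPC-1, 3 were higher and 6 lower, with METTL15 and DDX28 lowest. METTL15, a methyltransferase for the RNA of the mitochondrial small subunit, had 22.4, 17.8 and 19.9 CPM in AsPC-1 siRNA libraries, against 35.1 and 36.7 CPM in AsPC-1 controls (log2 fold change -0.86, adjusted p = 1.97e-08 by edgeR, SE 0.09). It was the 1 assembly factor called in PANC-1, with 13.4, 10.2 and 13.3 CPM in siRNA libraries against 16.7, 20.5 and 15.9 CPM in controls (log2 fold change -0.52, adjusted p = 0.0205 by edgeR, SE 0.13). With single libraries left out, the PANC-1 call was lost without siRNA replicate 2 (adjusted p = 0.0738 by edgeR). DDX28, a helicase of large-subunit assembly, had a log2 fold change of -0.71 in AsPC-1 (adjusted p = 0.000147 by edgeR).

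Of 17 translation factors 2 were higher and 3 lower in AsPC-1, against 16.6% and 16.3% of all genes tested, and none was called in PANC-1. OXA1L, which inserts new proteins into the inner membrane, had a log2 fold change of -0.30 in AsPC-1 (adjusted p = 1.31e-05 by edgeR). PDF, the mitochondrial peptide deformylase, had 5.22, 10.5 and 13.7 CPM in AsPC-1 siRNA libraries, against 4.12 and 2.896 CPM in AsPC-1 controls (log2 fold change 1.44, adjusted p = 0.000164 by edgeR, SE 0.27). The siRNA libraries were above both controls but spread widely, and PDF shares exons with COG8. Of 20 mitochondrial aminoacyl-tRNA synthetases and related genes, 2 were higher and 4 lower in AsPC-1, among them MARS2 (log2 fold change -0.40, adjusted p = 0.000644 by edgeR) and PARS2 (-0.43, adjusted p = 0.0337 by edgeR), which charge tRNA with methionine and proline. The PARS2 call was lost without AsPC-1 control replicate 1 (adjusted p = 0.478 by edgeR), siRNA replicate 2 (0.0708) or siRNA replicate 3 (0.119). None of the 20 was called in PANC-1.

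The messages that the mitochondrial ribosome translates had small changes. Of the 13 mitochondrially encoded mRNAs, 4 were higher and 1 lower in AsPC-1, and 0 were higher and 4 lower in PANC-1, beside the same shares over all genes. MT-ND6 had a log2 fold change of 0.22 in AsPC-1 (adjusted p = 3.48e-05 by edgeR) and MT-ND1 of 0.13 (adjusted p = 0.00490 by edgeR), the MT-ND1 call being lost without AsPC-1 control replicate 2 (adjusted p = 0.120 by edgeR) or siRNA replicate 1 (0.0573). In PANC-1 MT-ND3 and MT-CYB had log2 fold changes of -0.20 and -0.19 (edgeR adjusted p = 0.0105 and 0.00767), and neither call held when PANC-1 siRNA replicate 1 was left out (edgeR adjusted p = 0.0953 and 0.0562). Of 12 genes of mitochondrial transcription and its nuclear regulators that were tested, 1 was higher and 2 lower in AsPC-1. TFAM, which packages and transcribes mitochondrial DNA, and the transcription factor YY1 had log2 fold changes of -0.24 (adjusted p = 8.66e-05 by edgeR) and -0.21 (adjusted p = 0.000156 by edgeR), and none of the 12 was called in PANC-1.

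In the test of the difference between lines, 0 members were higher and 1 lower, 1.30% of the 77, against 4.36% of the 16680 genes tested, 2.28% higher and 2.07% lower. At an unadjusted p under 0.05 the edgeR test passed 12 of the 77 members, against 2813 of the 16680 genes tested. The median difference was 0.07 over the members and 0.02 over all tested genes. The 1 call was MRPS10, described above. Among the related lists, MT-ND3 (0.31, adjusted p = 0.00462 by edgeR) and MYC (0.35, adjusted p = 0.00841 by edgeR) responded more highly in AsPC-1 than in PANC-1. With single libraries left out, the absence of AsPC-1 control replicate 2 ended both calls (0.0679 for MT-ND3 and 0.0901 for MYC, adjusted p by edgeR).

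More members differed between the control cells of the lines than after siRNA. The edgeR test called 26 members higher and 30 lower in AsPC-1 controls than in PANC-1 controls, together 72.7% of the 77, against 76.4% of the 16182 genes tested, 36.1% higher and 40.3% lower. The members had no common direction, with a median log2 fold change of 0.02 over the members and -0.06 over all tested genes. Their summed level was 3849 ± 26.8 CPM in AsPC-1 controls (SD, n = 2) and 3921 ± 80.5 CPM in PANC-1 controls (SD, n = 3). The interquartile range of the members ran from -0.36 to 0.34, against -0.74 to 0.57 for the 10460 protein-coding genes within the members' range of expression. Large-subunit members were higher in 16 and lower in 22 of 51 cases, and small-subunit members in 10 and 8 of 25. Members with a bacterial counterpart were higher in 11 and lower in 20 of 45 cases, and mitochondrion-specific members in 15 and 10 of 31, with medians of -0.04 and 0.20. The difference between these classes was not tested.

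MRPS12 had the lowest log2 fold change of the members between AsPC-1 and PANC-1 controls. The protein has a bacterial counterpart and sits at the decoding site of the small subunit, and its gene (ENSG00000128626) lies at chr19:38930548-38933162 on the plus strand. Its levels were 33.8 and 32.0 CPM in AsPC-1 controls, against 187.1, 156.8 and 175.7 CPM in PANC-1 controls, which is 19.6% of the PANC-1 level (log2 fold change -2.35, adjusted p = 1.68e-12 by edgeR, SE 0.09). The siRNA libraries of the lines also lay apart, with 30.4, 30.1 and 35.1 CPM in AsPC-1 and 148.9, 160.5 and 148.6 CPM in PANC-1. After siRNA it was not called in either line.

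The second largest shortfall was that of MRPL27, a large-subunit protein near the peptidyl transferase centre. It had 17.5 and 15.8 CPM in AsPC-1 controls, against 38.2, 38.8 and 37.0 CPM in PANC-1 controls (log2 fold change -1.14, adjusted p = 3.34e-08 by edgeR, SE 0.10). MRPL38, MRPL47, MRPL36 and MRPL17, all of the large subunit, followed with log2 fold changes of -0.97, -0.91, -0.90 and -0.79. Their edgeR adjusted p-values were 0.000388, 1.01e-07, 1.79e-06 and 2.29e-07.

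On the other side, MRPS2 and MRPS35 of the small subunit were higher in AsPC-1. MRPS2, a protein with a bacterial counterpart, had 75.1 and 76.5 CPM in AsPC-1 controls, against 38.7, 35.3 and 33.4 CPM in PANC-1 controls (log2 fold change 1.13, adjusted p = 5.33e-09 by edgeR, SE 0.08). MRPS35, which is mitochondrion-specific, had 242.3 and 228.6 CPM in AsPC-1 controls, against 106.4, 132.0 and 98.4 CPM in PANC-1 controls (log2 fold change 1.12, adjusted p = 4.45e-08 by edgeR, SE 0.10). The libraries of the lines did not overlap for either gene. The large-subunit genes MRPL16, MRPS30, MRPL13 and MRPL45 followed with log2 fold changes of 0.98, 0.93, 0.89 and 0.86 (edgeR adjusted p = 3.52e-08, 6.16e-08, 3.10e-08 and 2.23e-06). MRPL45 tethers the ribosome to the inner membrane, and counts of its 2 named pseudogenes amounted to 10.1% of its own.

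**Figure D4:**
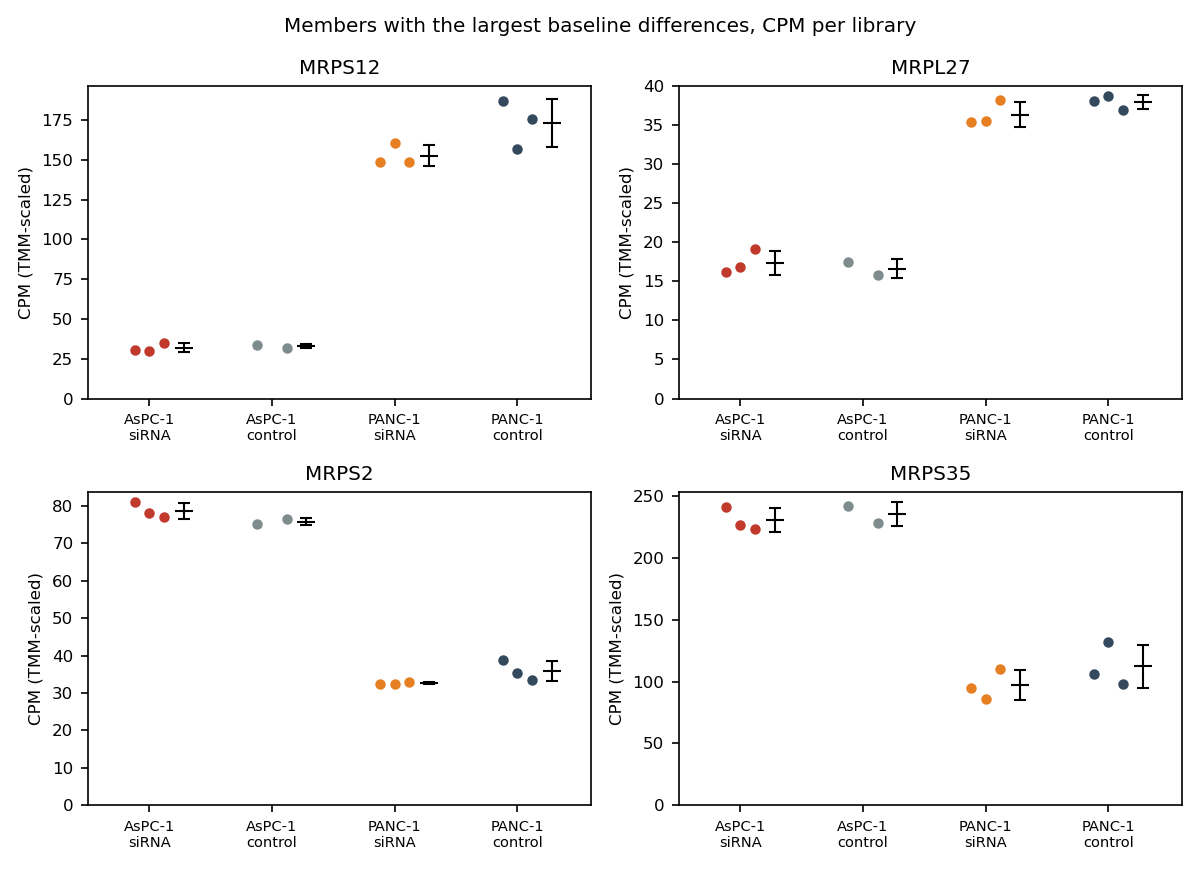
TMM-scaled CPM of MRPS12, MRPL27, MRPS2 and MRPS35 in every library, with points for libraries and a bar for the group mean with its SD. The pairs of AsPC-1 and PANC-1 groups lie apart in every panel, with MRPS12 at 30.1 to 35.1 CPM in AsPC-1 and at 148.6 to 187.1 CPM in PANC-1.

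Levels were also compared between members after division by the median length of each gene's protein-coding transcripts. On this scale of CPM per kilobase the members spanned a wide range in the control libraries. MRPL49 was highest in both lines, with 225.0 ± 8.04 CPM per kilobase in AsPC-1 controls (SD, n = 2) and 201.3 ± 11.99 in PANC-1 controls (SD, n = 3). Its rank rests on a short median length of 509.5 bases, against 1032 for MRPS34 and 1801.5 for MRPS35. Exons of MRPL49 also overlap FAU and SYVN1 on the other strand. MRPS34 and MRPS35 came next in AsPC-1, with 135.7 ± 1.16 and 130.7 ± 5.35 CPM per kilobase, which overlap within their SD. In PANC-1 MRPS12 and MRPL3 came next, with 143.5 ± 12.7 and 114.9 ± 5.17 CPM per kilobase. MRPL38, MRPL53 and MRPS17 were the lowest in both lines, with 1.37 ± 0.03, 3.63 ± 0.48 and 5.10 ± 0.55 CPM per kilobase in AsPC-1 controls and 2.78 ± 0.15, 3.27 ± 0.83 and 4.80 ± 0.22 in PANC-1 controls. The subunits of 1 ribosome differed widely in mRNA level, and annotated length, shared exons and counting rules enter these values.

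The members were also set beside their chromosomal neighbours. For each member, the median log2 fold change (AsPC-1 over PANC-1 controls) of the nearest tested protein-coding genes that are not members was set beside its own. Up to 10 such genes were taken on each side, and MRPL41 had only 15 in all. Over the 77 members Pearson's r was 0.583 and Spearman's rho 0.475, and over 13170 other genes they were 0.204 and 0.319. The other genes were not matched to the members for expression. Tested protein-coding genes ran from -14.87 to 14.91 on the log2 scale, and the members from -2.35 to 1.13, so the r values are not directly comparable. Without MRPS12 the members' r was 0.453 and rho 0.454 (n = 76). Of the 56 called members 40, or 71.4%, had the sign of their neighbours' median, as did 64.9% of 10492 other called genes. These values describe genes measured in the same 5 libraries, and neighbouring members share neighbours, so no p is given.

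Most neighbours of MRPS12 were lower in AsPC-1 too. Their median was -2.57, with 2 of 20 higher, and the transcription elongation factor gene PAF1 (-4.26), SAMD4B (-3.18), the translation initiation factor gene EIF3K (-2.58), NFKBIB (-2.56) and the kinase gene PAK4 (-1.96) were among the lower ones. The choice of these names followed their values. The nearest of all, SARS2, is the mitochondrial seryl-tRNA synthetase gene and lies head to head with MRPS12, with overlapping exons on opposite strands. SARS2 had 2.62 and 2.72 CPM in AsPC-1 controls, against 9.001, 8.66 and 8.57 CPM in PANC-1 controls (log2 fold change -1.66, adjusted p = 4.53e-07 by edgeR, SE 0.17). Since the strand used in counting is unknown, reads of the overlap cannot be assigned with certainty to either gene.

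Other members also lay among genes that differed the same way. The neighbours of MRPL27 had a median of -0.91, with 2 of 20 higher, and those of MRPL17 had a median of -0.92. All 20 neighbours of MRPL13 were higher in AsPC-1, with a median of 0.67. MRPS30 and MRPL36 went against their surroundings, whose medians were -0.26 and 0.16, and -0.04 and 0.04 with 25 neighbours on each side. Surroundings lay further on the opposite side for other called members, among them MRPL41 (-0.68 against 0.79), MRPS18B (0.34 against -0.53) and MRPL39 (-0.64 against 0.31). With the wider window these medians were 0.29, -0.62 and 0.27. Their choice followed their values. For MRPL38 the sign depended on the window, with a median of 0.07 over 10 neighbours on each side and of -0.32 over 25.

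**Figure D5:**
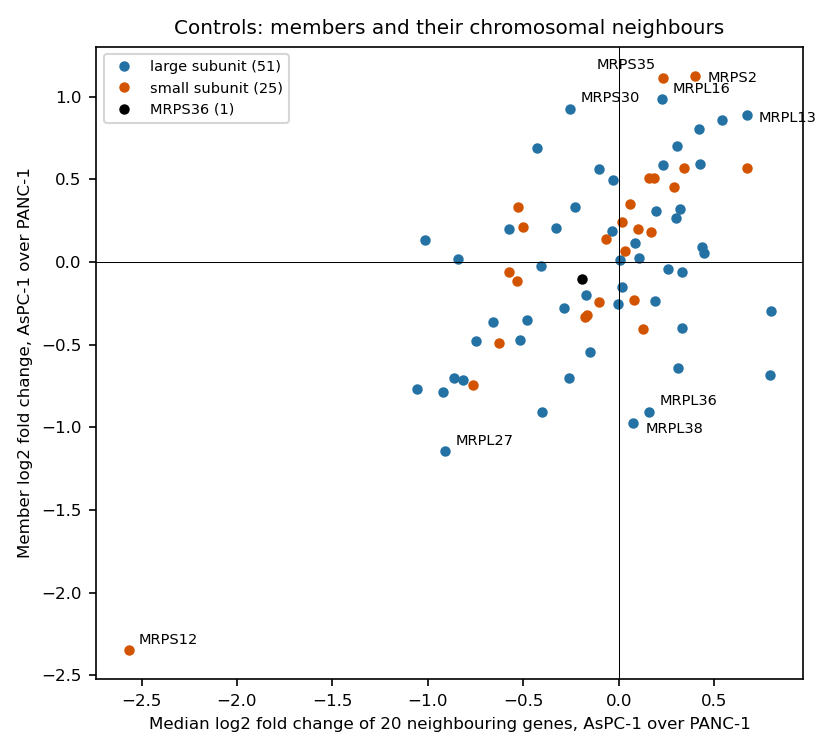
The log2 fold change of each member, AsPC-1 over PANC-1 controls (vertical axis), against the median of its 20 neighbouring genes (15 for MRPL41), none of them members (horizontal axis), coloured by subunit. MRPS12 lies at the lower left with -2.35 against -2.57, and Pearson's r over the other 76 members was 0.453.

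Promoters were read for the members called in both lines and for MRPS12, the last chosen after its values were seen. They span 250 bases before to 50 bases after the RefSeq start on GRCh38.p14, and 69 of the 77 members matched that table. The words sought on both strands were CCGGAAG, bound by ETS factors such as GABP, GCATGCGC, bound by NRF1, and AANATGGC, bound by YY1. They are shown because GABP, NRF1 and YY1 are known regulators of nuclear genes for mitochondria, and capitals mark each match.
MRPL58: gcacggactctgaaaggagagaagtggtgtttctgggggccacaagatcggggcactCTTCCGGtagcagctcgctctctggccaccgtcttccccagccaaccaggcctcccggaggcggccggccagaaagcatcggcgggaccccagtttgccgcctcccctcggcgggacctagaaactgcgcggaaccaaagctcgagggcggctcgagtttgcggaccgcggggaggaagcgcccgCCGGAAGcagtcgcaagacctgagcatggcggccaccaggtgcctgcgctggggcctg
MRPS10: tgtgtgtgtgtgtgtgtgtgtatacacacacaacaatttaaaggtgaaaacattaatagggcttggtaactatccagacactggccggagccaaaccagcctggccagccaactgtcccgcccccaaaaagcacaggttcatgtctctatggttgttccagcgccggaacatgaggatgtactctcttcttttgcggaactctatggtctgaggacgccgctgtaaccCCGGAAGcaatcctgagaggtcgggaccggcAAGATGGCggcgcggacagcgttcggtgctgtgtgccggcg
MRPL18: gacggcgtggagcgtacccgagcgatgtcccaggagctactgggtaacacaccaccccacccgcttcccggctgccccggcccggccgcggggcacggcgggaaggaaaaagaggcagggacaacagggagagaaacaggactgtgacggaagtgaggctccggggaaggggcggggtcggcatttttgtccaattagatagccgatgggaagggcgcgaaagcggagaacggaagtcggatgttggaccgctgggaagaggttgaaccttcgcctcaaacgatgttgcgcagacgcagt
MRPS12: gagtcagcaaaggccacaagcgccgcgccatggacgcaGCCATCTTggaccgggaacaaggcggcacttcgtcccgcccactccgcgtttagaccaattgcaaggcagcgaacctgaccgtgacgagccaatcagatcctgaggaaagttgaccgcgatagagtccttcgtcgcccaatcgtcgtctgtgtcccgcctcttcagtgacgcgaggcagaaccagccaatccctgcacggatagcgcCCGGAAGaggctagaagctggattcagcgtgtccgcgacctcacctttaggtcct
They lie at chr17:75012420-75012719 (plus), chr6:42217812-42218111 (minus), chr6:159789562-159789861 (plus) and chr19:38930694-38930993 (plus).

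The words were common in the members' promoters. CCGGAAG was in 29 of 69, 42.0%, against 20.6% of 8930 other tested protein-coding genes and 10.7% of all 27305 promoters in the table. AANATGGC was in 24, 34.8%, against 10.8% and 6.82%, and GCATGCGC in 6, 8.70%, against 5.87% and 3.27%. At least 1 of the words was in 46 members, 66.7%, against 32.6% and 18.7%, and a promoter with several words was counted under each. The MRPL58 promoter held CCGGAAG in both orientations, those of MRPS10 and MRPS12 held CCGGAAG and AANATGGC, and that of MRPL18 held none of the words. A match describes these letters only, and binding was not measured.

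The related lists differed between the lines at baseline as well, where 36.1% of all genes tested were higher and 40.3% lower in AsPC-1. All 13 mitochondrially encoded mRNAs were higher in AsPC-1 controls than in PANC-1 controls, whereas the members' median was 0.02. MT-ATP8 had 2168 and 2120 CPM in AsPC-1 controls, against 439.0, 495.2 and 498.7 CPM in PANC-1 controls (log2 fold change 2.21, adjusted p = 2.55e-14 by edgeR, SE 0.06). MT-ND2 had a log2 fold change of 1.36 (adjusted p = 5.27e-12 by edgeR). Mitochondrial genes took 13.6 ± 0.55% of counts in AsPC-1 controls (SD, n = 2) and 6.62 ± 0.17% in PANC-1 controls (SD, n = 3).

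Translation factors were mostly higher in AsPC-1, 11 higher and 3 lower of 17, against 36.1% and 40.3% of all genes tested, led by the release factor gene MTRF1 (log2 fold change 1.29, adjusted p = 3.30e-07 by edgeR) and the initiation factor gene MTIF3 (1.23, adjusted p = 4.99e-08 by edgeR). Of the 20 aminoacyl-tRNA synthetases and related genes, 12 were higher and 6 lower, with GATB, a subunit of the enzyme that makes glutaminyl-tRNA, at 1.41 (adjusted p = 8.04e-09 by edgeR). Assembly factors were higher in 14 and lower in 7 of 26 cases. RBFA and TFB1M, which act on the small subunit and its RNA, were lowest, with log2 fold changes of -2.12 (adjusted p = 4.39e-10 by edgeR) and -1.40 (adjusted p = 2.36e-08 by edgeR). Of the 12 tested regulators 7 were higher and 0 lower, with MYC at 1.75 (adjusted p = 2.83e-12 by edgeR) and PPARGC1B, a coactivator of mitochondrial genes, at 0.89 (adjusted p = 3.97e-06 by edgeR).

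The 5 subunits with other symbols split at baseline, 1 higher and 4 lower, against 36.1% and 40.3% of all genes tested. PTCD3 was higher, with 228.8 and 209 CPM in AsPC-1 controls against 107.6, 107.7 and 103.1 CPM in PANC-1 controls (log2 fold change 1.09, adjusted p = 3.90e-10 by edgeR, SE 0.06). AURKAIP1 had 67.5 and 68.6 CPM in AsPC-1 controls, against 153.9, 126.4 and 146.1 CPM in PANC-1 controls (log2 fold change -1.02, adjusted p = 2.02e-08 by edgeR, SE 0.08). CHCHD1, DAP3 and GADD45GIP1 were also lower, by log2 fold changes of -0.46, -0.30 and -0.25 with edgeR adjusted p-values of 0.000505, 0.000463 and 0.00919. The GADD45GIP1 call was lost without AsPC-1 control replicate 2 (adjusted p = 0.161 by edgeR). In the MRPS18 family MRPS18B was higher in AsPC-1 (log2 fold change 0.34, adjusted p = 0.00112 by edgeR), and MRPS18A and MRPS18C, at 0.13 and 0.20, were not called.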

How the data were processed

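Poly(A) RNA of 11 libraries was sequenced as paired reads of 150 bases, per the labels' protocols. The submitters' processing notes name HISAT2, HTSeq and hg19 without versions. How strand was set in counting is not known. The deposited values are raw counts, whole numbers per gene and library. All 58735 identifiers occur in GENCODE 29 (GRCh38), which gave names and positions.

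Each comparison was fitted over the whole table (edgeR 4.0.16, R 4.3.3, filterByExpr, TMM, glmQLFit, glmQLFTest, two-sided, Benjamini-Hochberg, threshold 0.05). The difference in response used 1 fit over all groups. The SE of a log2 fold change is its size divided by the square root of F. CPM values use TMM factors over all 11 libraries. Replicates varied with a coefficient of 2.77% in AsPC-1 and 6.08% in PANC-1. Every pair of replicates differed by more than sampling noise. The scripts were tested on simulated data. There the test of the difference between lines called 19.4% of effects of 0.3 and 68.7% of effects of 0.6 (log2 scale). A member not called in that test may therefore still differ.

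Members, gene lists and the 7-base word were chosen with earlier results of these data known. Named were up to 6 called rises and 6 called falls per comparison, members called in both lines, the MRPS18 family, the highest and lowest per kilobase, the 5 other subunits and up to 2 called genes per related list. MRPL13, MRPL20, MRPL39, MRPL41, MRPL42, MRPL43 and the uncalled carriers of the word were added once their values were known. Of the members, 29 overlap exons of a gene on the other strand and 15 on the same strand, and 34 have named pseudogenes, whose counts exceed 5% of the member's own for MRPS31 (14.5%) and MRPL45 (10.1%). Values of such members are uncertain to that extent. Alternatives tried were leaving out each library, the replicate number as a block, a joint fit of all groups, DESeq2 1.42.0, scaling by RLE or upper quartile, and a filter at 5 CPM or none. Tables were handled with pandas 2.3.3, numpy 2.4.6 and scipy 1.17.1 (Python 3.11.15), and figures drawn with matplotlib 3.10.9.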

Additional observations from a re-analysis of the deposited data

Results flagged for a closer look

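The response of MRPS10 to MYEOV siRNA differed between the cell lines in a test of that difference itself. AsPC-1 had a log2 fold change of -0.71 and PANC-1 one of -0.34, a difference of -0.35 (edgeR adjusted p = 0.00872), with all siRNA libraries below all controls in both lines. MYEOV itself differed in the same direction, by -0.59 (edgeR adjusted p = 0.00153), and whether the 2 differences are connected was not tested. With single libraries left out, the absence of AsPC-1 control replicate 2 ended the call (-0.29, adjusted p = 0.103 by edgeR). The fit with the replicate number as a block is given with the other alternatives.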

How the results depend on the processing

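MRPL58, MRPS10 and MRPL18 stayed called lower in both lines under every alternative run. In AsPC-1 MRPL35 also stayed called lower, and MRPS6, MRPL24 and MRPS34 stayed called higher. Over the named members and list genes, 895 recomputed values kept direction and call, 67 lost the call, 1 gained it and 4 changed sign, all 4 of them uncalled MRPS18A or MRPS18C. Over all the alternatives run, their log2 fold changes in AsPC-1 ran from -0.0851 to 0.0345 for MRPS18A and from -0.22 to 0.00646 for MRPS18C. In PANC-1 they ran from -0.17 to 0.0164 for MRPS18A and from -0.0947 to 0.0117 for MRPS18C.

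In AsPC-1 DESeq2 and the joint fit of all groups each called 4 members higher and 4 lower, against 9 and 7. Of all genes tested they called 22.2% and 21.0%, against 32.9%. Both lost MRPS17, MRPS18B, MRPL13, MRPL17, MRPL20, MRPL42 and MRPL43, DESeq2 also MRPL54 and the joint fit also MRPL23. With single libraries left out the counts ran from 5 to 10 higher and from 4 to 7 lower, with 5 and 4 without either AsPC-1 control. In PANC-1 they were 0 higher throughout and 3 to 6 lower. The PANC-1 count was 6 without a filter, 6 in the joint fit and 5 at a filter of 5 CPM. Baseline counts ran from 23 to 27 higher and from 26 to 30 lower. For the difference between lines they ran from 0 to 2 higher (2 without PANC-1 control replicate 2) and from 0 to 1 lower (0 without AsPC-1 control replicate 2).

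Same-numbered libraries did not vary together (correlations of their deviations from -0.33 to 0.01), so the numbers were not taken as pairs. With the replicate block, members called were 7 higher and 7 lower in AsPC-1, 0 and 3 in PANC-1, 26 and 28 at baseline, and 0 and 0 for the difference between lines, where MRPS10 had -0.36 (adjusted p = 0.0811 by edgeR) and MYC was not called either (0.100). Calls of MRPS21 (adjusted p = 0.0531 by edgeR), METTL15 (0.0875) and MT-ND3 (0.0582) in PANC-1 and of MRPL20, MRPL43 and PARS2 in AsPC-1 were also lost under the block. The block left 628 of all genes called in PANC-1, against 1356. The cause of these changes was not tested. With 25 neighbours on each side, the members' r was 0.652 and rho 0.495 (n = 77). With 2 AsPC-1 controls, each of them weighs on every AsPC-1 call, and changes of low members such as MRPL54 and MRPS17 rest on few counts.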
